A study of Mus musculus with 282 samples.

Results

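Genes of mitosis and of the G2/M stage of the cell cycle were examined in single mouse granulocyte-monocyte progenitors (GMPs), the marrow precursors of granulocytes and monocytes. The set holds 40 genes, chosen by their Ensembl identifiers, of the 55450 gene identifiers in the deposited count tables, and all 40 were found in both tables. Its definition describes mitotic cyclins, kinases, kinesins, kinetochore and spindle genes, and it names Mki67, Top2a, Ccnb1, Ccnb2, Cdk1, Ccna2, Plk1, Aurka, Aurkb, Bub1 and Cenpe among them. No file used here pairs an identifier with a symbol, so each gene is given by its identifier, and which identifier belongs to which of these names is not stated. For the same reason the genes were not ordered by role, and the GMP label was not checked against marker genes.

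All cells came from mice of 12 to 19 weeks of both sexes that carried a GFP-p65 allele (homozygous) and H2BmCherry (heterozygous), so treated and control cells shared both reporters. The cells were kept in culture for 8 h during confocal imaging, picked singly with a micromanipulator and sequenced by an adapted Smart-Seq2 protocol. The authors' cell tables list 238 of 282 samples, 178 with the stimulus TNF and 60 with the stimulus called blank, and give each a response class of the NfkB reporter and a cell cycle phase. Each sample is 1 cell and no animal is named, so the experiment was the replicate (n = 2): 67 listed cells came from an experiment with 1 plate and 171 from an experiment with 2 plates. Where a pair of values is given without their source, the first is from the 1-plate experiment. The labels state neither the dose and timing of TNF nor the promoter of H2BmCherry.

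Cells that enter G2 and mitosis make the proteins of this set in a wave. Cyclin A and B bind and activate Cdk1, which drives entry into mitosis. The kinases Plk1, Aurka and Aurkb build and control the spindle, and Aurkb acts in the chromosomal passenger complex. Bub1 is a kinase of the spindle checkpoint, and Cenpe is a kinesin of the kinetochore. Top2a untangles replicated DNA, and Mki67 encodes the proliferation antigen that coats mitotic chromosomes. Transcription of such genes is held down in quiescent and G1 cells and released late in the cycle through the cell cycle genes homology region (CHR), a short promoter element bound by MuvB complexes, often beside CCAAT boxes, which are bound by NF-Y. Progenitors of the marrow divide often, and these genes are among the strongest markers of their cycling fraction.

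Promoter sequences were available for 9 of the 11 named genes from RefSeq (mouse build GRCm38.p6). Both strands of the 250 bases before the transcription start were searched for CCAAT, for the CHR form TTTGAA, for the related form TTCGAA and for a form with the letters TTTAAA, and a CCAAT match and a CHR match could share at most 1 end base. CCAAT was present in 9 of 9 promoters, against 33.8% of 32851 promoters of all genes, and at least 2 copies were present in 7 of 9, against 10.1%. At least 1 of the 3 CHR forms was present in 6 of 9, against 26.2% of all promoters. The form TTTGAA was found in 4 promoters (16% of all promoters), the form TTTAAA was found in 2 (12.1% of all) and the form TTCGAA was found in 1 (1.34% of all). The 150 bases before the start are shown for 4 of the genes that carry both kinds of match there. Mki67 also carried both and is not shown, with CCAAT 141 bases and TTTGAA 116 and 98 bases before the start. Capitals mark the matches, which on the other strand read ATTGG for the CCAAT box and TTCAAA for the first CHR form. Each sequence runs 5′ to 3′ on the strand of the gene.

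Ccnb1 (chr13:100786487-100786636, - strand): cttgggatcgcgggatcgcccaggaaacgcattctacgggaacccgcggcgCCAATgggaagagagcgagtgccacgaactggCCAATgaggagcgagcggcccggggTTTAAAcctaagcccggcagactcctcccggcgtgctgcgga
Cdk1 (chr10:69352913-69353062, - strand): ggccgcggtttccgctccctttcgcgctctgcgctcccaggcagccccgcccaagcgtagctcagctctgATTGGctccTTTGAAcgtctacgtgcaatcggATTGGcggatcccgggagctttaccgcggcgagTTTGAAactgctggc
Plk1 (chr7:122159285-122159434, + strand): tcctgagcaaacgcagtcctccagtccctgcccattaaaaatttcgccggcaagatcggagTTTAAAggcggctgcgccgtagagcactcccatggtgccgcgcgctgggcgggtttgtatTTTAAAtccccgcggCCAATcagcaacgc
Top2a (chr11:99024190-99024339, - strand): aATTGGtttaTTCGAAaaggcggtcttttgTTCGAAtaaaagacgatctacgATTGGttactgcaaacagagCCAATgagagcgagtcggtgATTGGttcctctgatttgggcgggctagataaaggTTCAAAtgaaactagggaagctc

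In Ccnb1 a pair of CCAAT boxes stood before a TTTAAA, and Plk1 had a single CCAAT after its TTTAAA matches. In Cdk1 each of the ATTGG matches had a TTTGAA downstream of it. Top2a held TTCGAA and several CCAAT or ATTGG matches in the same window. A match is a description of the letters and not of binding, and no value below is tied to a single promoter.

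Read depth was 182301 to 3380416 reads per listed cell (median 1339522), and 3672 to 10922 genes had a read (median 9892). The second plate of the 2-plate experiment stood apart, with 26 of the 28 cells under 8000 detected genes. Spike-in RNA took a median of 0.113% of reads on the plate of the 1-plate experiment and 1.12% on the first plate of the other. On the second plate of the latter the median was 1.60%, and the highest cell had 23.6%, against 3.09% on the first. Reads were not tagged with molecular identifiers, so they are not independent molecules. Intervals on shares of cells cover counting error only, since the cells share 2 experiments.

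The phases in the authors' table were G1 for 67 cells, S for 43 and G2M for 128. The labels do not say how they were called, and the calls may rest on these very genes, so the comparison across phases is a description without a test. CPM, reads of a gene per 1000000 reads of the cell or group, was computed here from the reads summed over the cells of a phase. All 40 genes were higher in G2M than in G1 cells, in S than in G1 cells and in G2M than in S cells, in each experiment. The median gene was 9.94-fold and 6.81-fold higher in G2M than in G1. S stood 4.83-fold and 3.52-fold above G1. A level at least 2-fold higher in G2M than in G1 in both experiments was seen for 39 of 40 genes, against 2.3% of the 8343 genes that reached 10 CPM. A level at least 4-fold higher was seen for 29 of 40, against 0.935%, and nothing is read from these shares, since the phases may rest on the set. The median over all those genes was 0.10 and 0.04 on the log2 scale.

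Summed over the set, the G1 cells of the 1-plate experiment held 207 to 4797 CPM with a median of 868 (n = 12 cells). S cells held 3876 to 6992 CPM with a median of 5208 (n = 15), and G2M cells held 6098 to 13990 CPM with a median of 9866 (n = 40). In that experiment the G2M cells lay above every G1 cell, and G1 and S cells overlapped. In the 2-plate experiment the medians were 1238 CPM in G1 (284 to 5860, n = 55), 4422 CPM in S (1426 to 6774, n = 28) and 8308 CPM in G2M (818 to 13968, n = 88). There the ranges of all phases overlapped. Over both experiments 14 G2M cells were below the highest G1 cell, and 5 of these had under 8000 detected genes. No S cell was above the median G2M cell, and 0 S cells were below the median G1 cell.

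**Figure D1:**
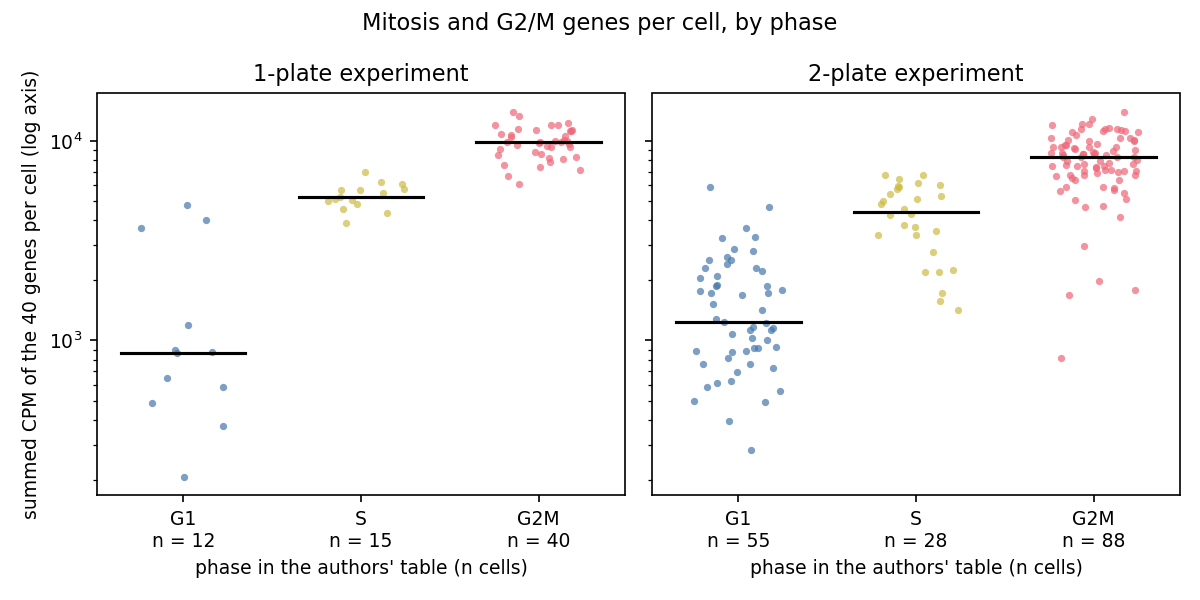
Summed CPM of the 40 genes in each cell on a log axis, by the authors' phase, with 1 panel per experiment. Each point is a cell and each bar a median. The medians are 868 in G1 and 9866 in G2M in the 1-plate experiment and 1238 and 8308 in the 2-plate experiment, with a tail of low G2M cells in the latter.

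The number of genes of the set with a read followed the same order. A G1 cell had reads of a median of 21.5 and 29 genes, S cells of 40 and 39, and G2M cells of 40 in both. With every cell thinned to 458260 reads, which left out 24 shallower cells, the medians were 19.5 and 28 in G1, 40 and 39 in S, and 40 and 40 in G2M. Thus G1 cells were not empty of these transcripts, and no listed cell lacked a read of the set. The share of G1 cells with a read ranged over the genes from 16.7% to 100% with 1 plate and from 25.5% to 100% with 2 plates. In G2M cells the lowest shares were 95% and 93.2%.

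The ratio of G2M to G1 differed widely between genes. ENSMUSG00000030867 is an example of a gene near absent in G1. In the 1-plate experiment it lay at 0 to 35.2 CPM in G1 cells (median 0.631), at 7.54 to 164 CPM in S cells (median 55) and at 62.9 to 476 CPM in G2M cells (median 212). With 2 plates its medians were 2.28, 31.9 and 163 CPM. No G1 cell of the 1-plate experiment reached the lowest G2M cell, and its summed level was 42.1-fold and 19-fold higher in G2M than in G1. ENSMUSG00000026605 was 69.6-fold and 14.7-fold higher, and ENSMUSG00000028678 was 27.8-fold and 25.8-fold higher, each with a G1 median of 0 CPM in both experiments. For ENSMUSG00000044201 the ratio of 217-fold in the 1-plate experiment rests on 4 reads in the 12 G1 cells, and it was 7.57-fold in the 2-plate experiment. These genes were chosen after their values were seen.

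At the other end, ENSMUSG00000004880 had reads in 12 of 12 G1 cells of the 1-plate experiment, at 10 to 427 CPM (median 111). It lay at 99.4 to 555 CPM in S cells (median 346) and at 82.9 to 788 CPM in G2M cells (median 354) there. The phases overlapped in this gene, and its summed level was only 2.39-fold and 1.48-fold higher in G2M than in G1. It was the one gene below 2-fold, in the 2-plate experiment. In that experiment the next above the line were ENSMUSG00000062248 (2.16-fold, and 3.48-fold with 1 plate), ENSMUSG00000032218 (2.34-fold, and 33.7-fold with 1 plate) and ENSMUSG00000044783 (2.46-fold, and 2.62-fold with 1 plate). The order of the genes by this ratio was only partly shared by the experiments (Spearman's rho 0.41 over 40 genes, as a description), and the G1 levels rest on few reads.

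**Figure D2:**
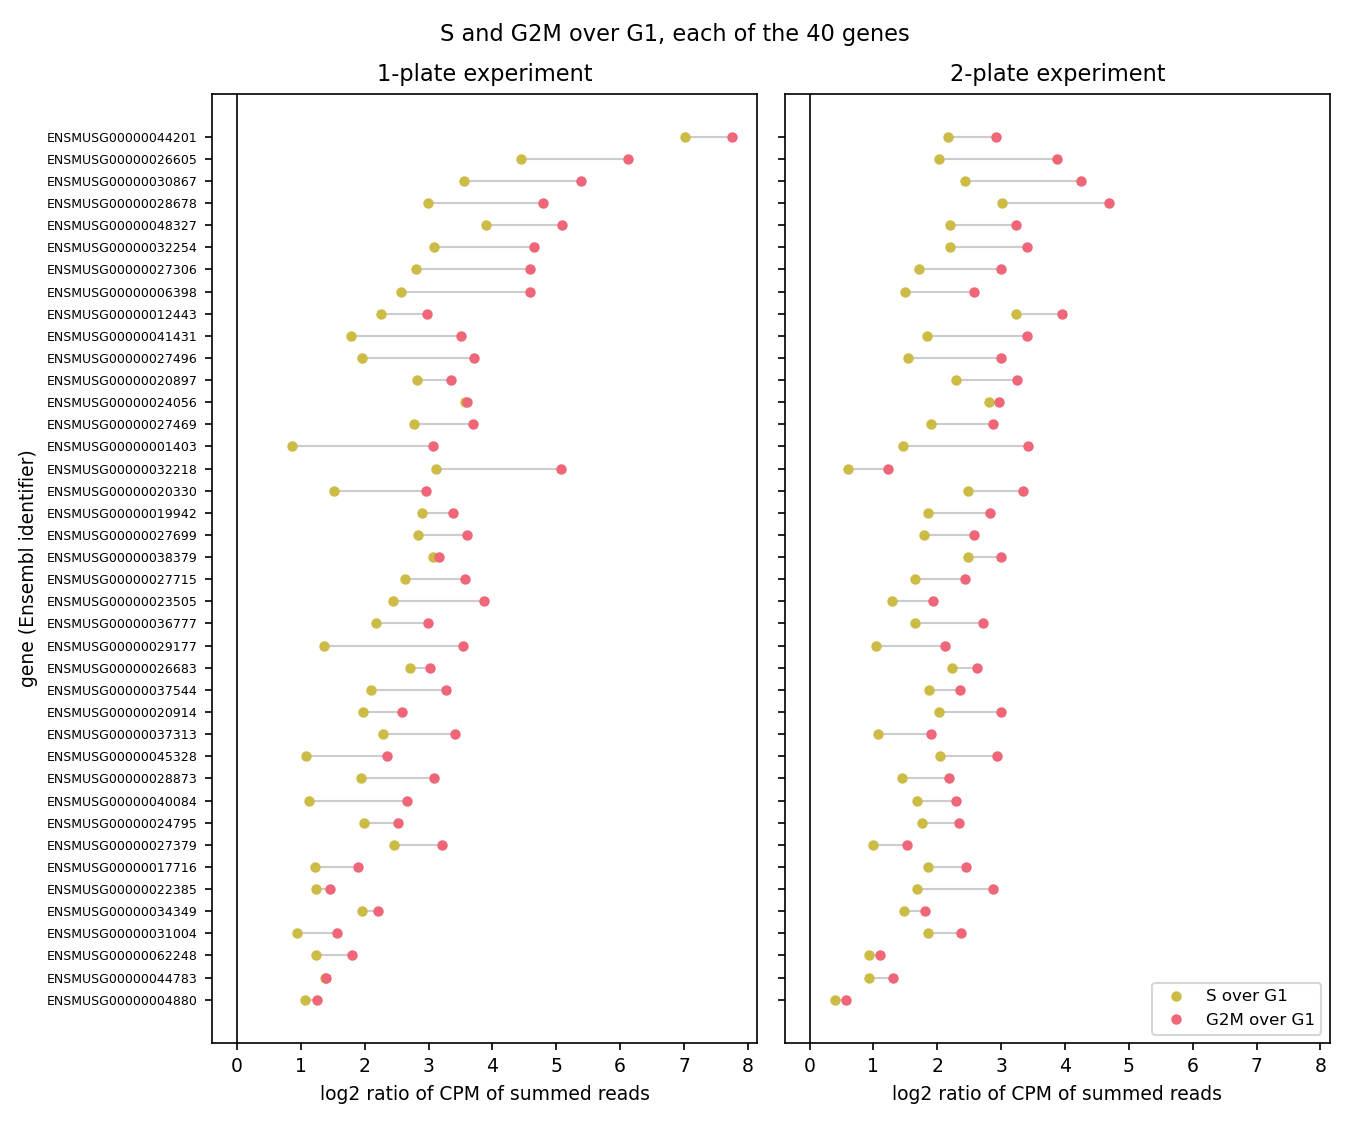
Log2 ratio of the CPM of summed reads in S over G1 (yellow) and G2M over G1 (red) for each of the 40 genes, with 1 panel per experiment and genes ordered by their mean G2M ratio. All points lie above 0, and the gap between S and G2M is nearly closed in some genes (ENSMUSG00000004880, ENSMUSG00000024056) and wide in others (ENSMUSG00000001403).

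The level already reached in S separated the genes further. The median gene stood in S at 52.4% and 57.2% of its G2M level. In S cells 5 genes stood at 75% or more of their G2M level in both experiments. ENSMUSG00000024056 reached 97.3% and 89.5% of it, ENSMUSG00000004880 87% and 89.1%, ENSMUSG00000044783 99.2% and 77%, ENSMUSG00000034349 83.8% and 79.6%, and ENSMUSG00000026683 79.9% and 76.1%. ENSMUSG00000038379 (93.5% and 70.3%) was just outside. Below 35% in both experiments were another 5. ENSMUSG00000001403 stood in S at 21.6% and 25.7% of its G2M level, and ENSMUSG00000030867 at 28% and 28.5%. ENSMUSG00000028678 stood at 28.4% and 31.3%, ENSMUSG00000026605 at 31.4% and 27.7%, and ENSMUSG00000041431 at 30.4% and 33.6%.

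Per cell, ENSMUSG00000024056 had a median of 56 CPM in S and 48.2 CPM in G2M cells of the 1-plate experiment, and 31.1 and 48.3 CPM in the other. Its S and G2M cells overlapped throughout, while its median was 0 CPM in G1 in both. ENSMUSG00000001403 had medians of 71.9 CPM in S and 430 CPM in G2M cells, and 82.3 and 402 CPM in the other experiment. Its G1 medians were 11.7 and 20.7 CPM. Both genes were thus low in G1 and high in G2M, and they differed in S. The order of the genes by the G2M over S ratio was more alike between the experiments (Spearman's rho 0.69 over 40 genes) than the order by the G2M over G1 ratio. The limits and the genes in this paragraph and the one before were chosen after their values were seen.

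**Figure D3:**
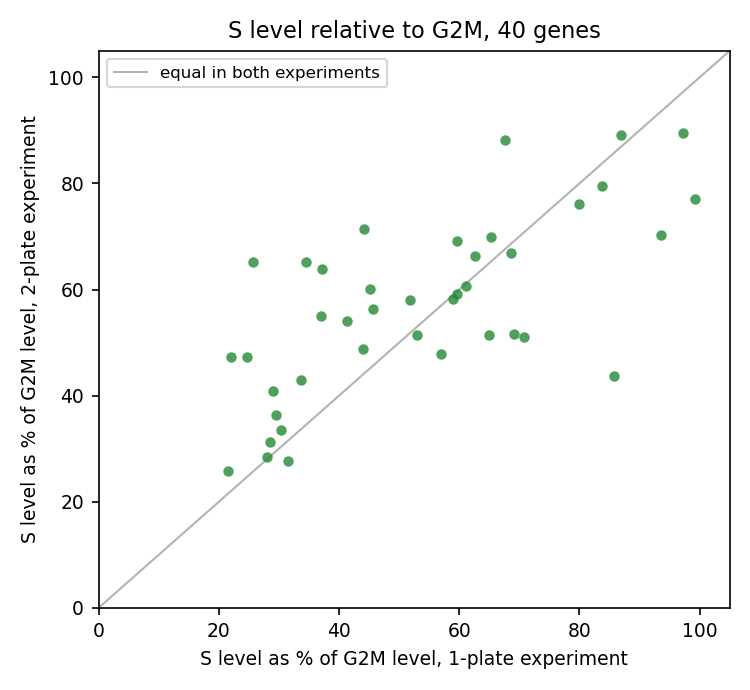
Level in S cells as a percentage of the level in G2M cells (CPM of summed reads) for each of the 40 genes, 1-plate experiment on the horizontal and 2-plate experiment on the vertical axis. The grey line marks equal values. The genes spread from 21.6% to 99.2% on the horizontal and from 25.7% to 89.5% on the vertical axis.

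Over all 238 cells the levels of the genes varied together. The median of Spearman's rho over the 780 pairs of genes was 0.66 (0.31 to 0.90), with the highest value between ENSMUSG00000041431 and ENSMUSG00000001403. Each gene correlated with the mean log2(CPM + 1) of the other 39 at a median rho of 0.80 (0.55 for ENSMUSG00000062248 to 0.90 for ENSMUSG00000041431). Within phases the pairs were less alike, with a median rho of 0.27 in G1, 0.25 in S and 0.31 in G2M cells. Inside G2M the pair ENSMUSG00000041431 and ENSMUSG00000001403 again had the highest value, at 0.76 (n = 128 cells). ENSMUSG00000026605 and ENSMUSG00000027496 followed the rest of the set most closely there (0.76 and 0.73), and ENSMUSG00000062248 and ENSMUSG00000024056 least (0.20 and 0.27). By plate this order was not kept: ENSMUSG00000024056 was at 0.56 on the plate of the 1-plate experiment and at 0.06 and 0.37 on the plates of the other, and on the former the lowest were ENSMUSG00000027379 (-0.29) and ENSMUSG00000020897 (-0.11). These values describe cells that share plates and differ in depth.

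The mean log2(CPM + 1) of the set followed the authors' phase scores across the 238 cells, with Spearman's rho of 0.83 with the G2M score, -0.90 with the G1 score and -0.19 with the S score. It was 0.22 with the read total and 0.35 with the number of genes detected. Within the 128 G2M cells the values were 0.40 with the G2M score and -0.58 with the G1 score. Among 11483 other genes with a read in at least 20% of the cells, ENSMUSG00000020808 was most like the mean of the set (rho 0.86) and ENSMUSG00000018362 came next (0.84). The level of ENSMUSG00000020808 in G1, S and G2M was 24.2, 44.8 and 142 CPM with 1 plate and 9.03, 42.4 and 134 CPM with 2 plates. Of the other genes, 8 exceeded the median that the members themselves had with the rest of the set.

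Whether TNF changed the set was asked first over all listed cells. Fewer genes of the set were higher than lower with TNF, and none passed the test. Reads were summed per experiment and stimulus and fitted over all genes with edgeR's quasi-likelihood test, with the experiment as a term and Benjamini-Hochberg adjustment over all genes tested. All 40 genes passed the filter on low counts, and 0 of 40 were called at an adjusted p of 0.05, where 0.446% of the 15479 genes tested were called. With DESeq2 the count was also 0. By edgeR 2 of 40 had an unadjusted p under 0.05. The share of all genes under that unadjusted limit is not given, so nothing is read from such counts here or in the comparisons below. The fitted difference was positive in 12 genes and negative in 28, with a median of -0.06 on the log2 scale against 0.03 over all genes. The 95% interval of each of the 40 genes lay within 2-fold in either direction. Scaled by spike-in totals, all 40 differences were positive with a median of 0.34, where all genes had shifted by 0.42, so relative to all genes the set's median was -0.09, as it was without spike-ins.

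The largest positive difference was that of ENSMUSG00000048327. In the 1-plate experiment it had 0 to 766 CPM in TNF cells (median 115) and 0 to 399 CPM in blank cells (median 107). The 2-plate cells had 0 to 371 CPM (median 62.5) against 0 to 194 CPM (median 56.1). The cells of the groups overlapped in both experiments. The fitted difference was 0.48 ± 0.15 (SE, edgeR adjusted p = 0.343), with 0.51 and 0.45 by experiment. ENSMUSG00000027306 (0.28) and ENSMUSG00000036777 (0.26) followed, and the latter split by experiment (0.55 and -0.02). The most negative was ENSMUSG00000004880, the gene with the smallest ratio of G2M to G1, at -0.35 ± 0.14 (SE, edgeR adjusted p = 0.444), with -0.30 and -0.40 in the experiments. ENSMUSG00000022385 (-0.26) and ENSMUSG00000020330 (-0.25) came next. Of all 40 genes 5 were higher in both experiments, 14 lower in both and 21 split.

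The shares of G2M cells overlapped within counting error. G2M cells made up 58.8% of 51 TNF cells (exact 95% interval 44.2% to 72.4%) and 62.5% of 16 blank cells (35.4% to 84.8%) in the 1-plate experiment. Among 2-plate cells they made up 49.6% of 127 (40.6% to 58.6%) and 56.8% of 44 (41% to 71.7%). Cells under 8000 detected genes were 24 of these 127 TNF cells and 2 of the 44 blank cells. With only cells of at least 8000 genes, the fitted differences were positive in 16 genes and negative in 24, with a median of -0.06. Restricted to G2M cells, the fitted differences were positive in 20 genes and negative in 20, with a median of 0.01 and 0 called. Nothing is read from this restriction, since the phase calls may rest on the set.

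The response classes describe how the NfkB reporter behaved in a cell. Both experiments held at least 5 cells of 3 classes (non-responsive blank, transient TNF and oscillatory TNF), and their sums were tested in 1 fit, so the comparisons with blank share their control sums. In the 1-plate experiment the summed CPM of the set had a median of 9568 in oscillatory TNF cells (207 to 12321, n = 20), 7407 in transient TNF cells (585 to 13990, n = 25) and 7580 in non-responsive blank cells (372 to 11987, n = 13). In the 2-plate experiment the medians were 6643 (493 to 12122, n = 36), 5102 (284 to 13968, n = 51) and 6545 (759 to 12798, n = 34). The ranges of the classes overlapped almost fully, and each class held G1, S and G2M cells.

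**Figure D4:**
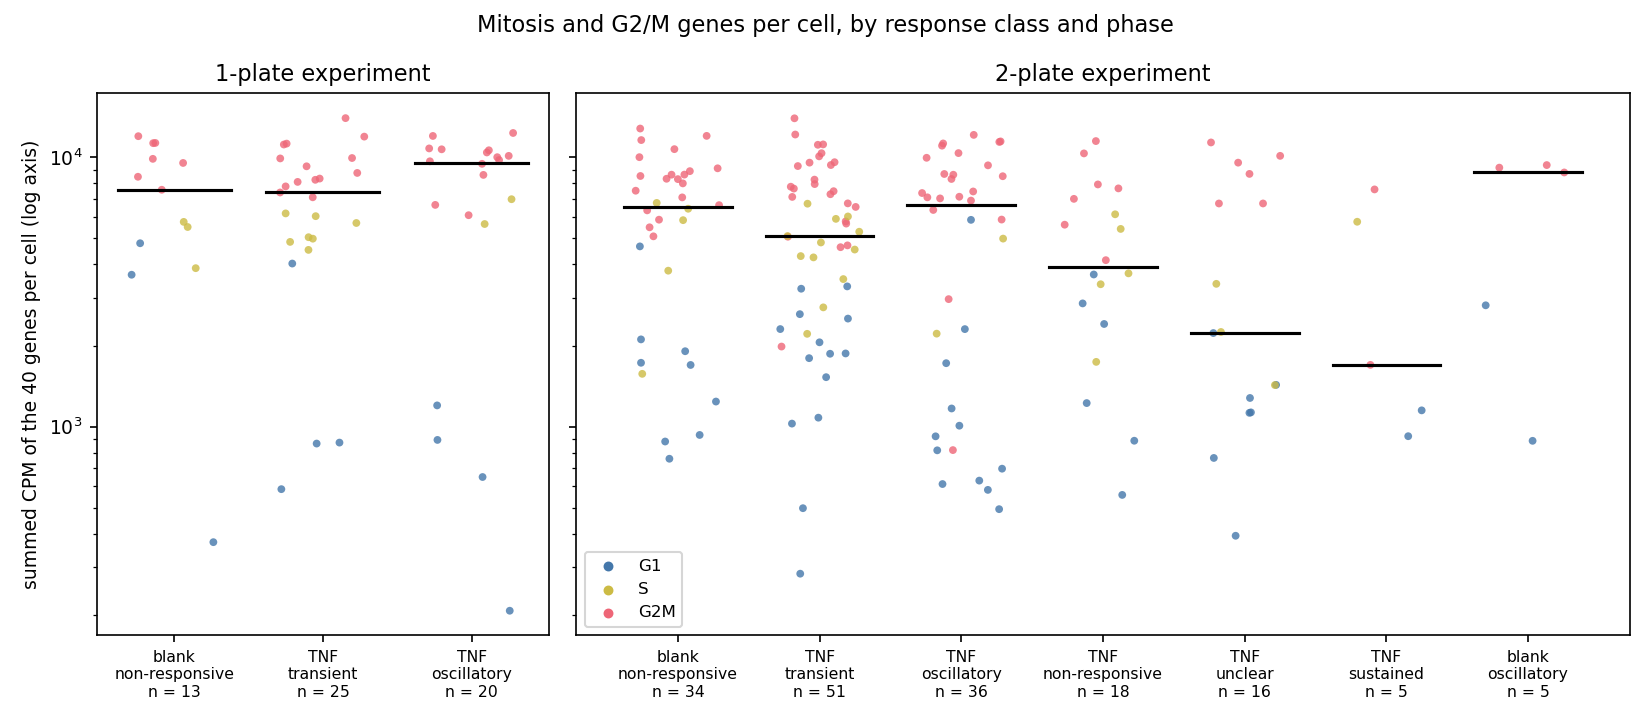
Summed CPM of the 40 genes in each cell on a log axis, by stimulus and response class (classes with at least 5 cells in an experiment), coloured by the authors' phase. Bars are medians. In the 1-plate experiment the class medians are 7580, 7407 and 9568, and in the 2-plate experiment they run from 1695 in sustained TNF cells (n = 5) and 2235 in unclear TNF cells to 6643 in oscillatory TNF and 8790 in oscillatory blank cells (n = 5).

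The observed shares of the phases differed between the classes, with wide intervals. S cells were 2 of 20 oscillatory TNF cells (10%, exact 95% interval 1.2% to 31.7%) and 7 of 25 transient TNF cells (28%, 12.1% to 49.4%) in the 1-plate experiment. In the 2-plate experiment they were 2 of 36 (5.6%, 0.7% to 18.7%) and 12 of 51 (23.5%, 12.8% to 37.5%). Non-responsive blank cells had 3 of 13 (23.1%) and 5 of 34 (14.7%). G2M cells were 70% and 61.1% of oscillatory, 56% and 49% of transient and 53.8% and 58.8% of non-responsive blank cells. The intervals overlap, and no test was made. In summed reads, a different share of S or G2M cells and a different level per cell cannot be told apart. The values in G2M cells are given beside each comparison as a description only. The phase calls may rest on these very genes, so these values cannot separate share from level either. Among G2M cells of the 1-plate experiment the summed CPM of the set had a median of 10072 in oscillatory TNF (6098 to 12321, n = 14), 9009 in transient TNF (7108 to 13990, n = 14) and 9875 in non-responsive blank cells (7580 to 11987, n = 7). With 2 plates the medians were 8412 (818 to 12122, n = 22), 7781 (1982 to 13968, n = 25) and 8428 (5090 to 12798, n = 20). Within this phase the ranges of the classes overlapped, and the lowest cells were TNF cells of the 2-plate experiment. Those at 818, 1982 and 2974 CPM came from its second plate and had only 5126, 6350 and 6855 detected genes. In that experiment 5 of 36 oscillatory, 7 of 51 transient and 2 of 34 non-responsive blank cells had under 8000 detected genes. The part of such cells in the low values was not tested.

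Between oscillatory TNF and non-responsive blank cells, most genes of the set were higher in oscillatory cells and none passed the edgeR test: 0 of 40 were called, where 2.35% of 16586 genes were. The difference was positive in 32 genes and negative in 8, with a median of 0.13 against 0.02 over all genes, and 4 had an unadjusted p under 0.05. With sums per plate it was positive in 22 genes and negative in 18, with a median of 0.027. By experiment the median was 0.30 and 0.03, and 18 genes were higher in both, 4 lower in both and 18 split. Without the 1-plate experiment (sums per plate of the other) the median was -0.07. Without the first or the second plate of the 2-plate experiment it was 0.11 and 0.04. In G2M cells alone it was -0.01, with 19 genes positive and 21 negative. Scaled by spike-in totals all 40 differences were positive, with a median of 0.68 where all genes had shifted by 0.56, which is 0.12 relative to all genes.

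Among them ENSMUSG00000048327 had the lowest adjusted p of the set. Its cells ranged from 0 to 766 CPM in oscillatory TNF (median 169) and from 0 to 399 CPM in non-responsive blank cells (median 94.8) of the 1-plate experiment. They ranged from 0 to 274 CPM (median 79.1) and from 0 to 182 CPM (median 58.2) in the 2-plate experiment. The cells overlapped, and both medians were higher in oscillatory cells. Its fitted difference was 0.81 ± 0.19 (SE, 95% interval 0.36 to 1.27, edgeR adjusted p = 0.101), at 0.98 and 0.62 by experiment. The adjusted p was 0.00572 with DESeq2, where 1286 of all 16586 genes were called. It was 0.0378 with edgeR and a stricter filter (at least 10 CPM in at least 50% of the sums), where 732 of 8361 genes were called. Over all 12 alternatives it ran from 0.00572 to 1. In G2M cells the difference was 0.61 (edgeR adjusted p = 0.357). This does not separate level from phase, since the phase calls may rest on the set. A single cell gave 27.1% of the reads of this gene in the oscillatory cells of 1 experiment (1-plate) and 9.96% in those of the other.

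The next largest differences were those of ENSMUSG00000036777 (0.56) and ENSMUSG00000040084 (0.44), and the most negative were those of ENSMUSG00000004880 (-0.37), ENSMUSG00000038379 (-0.29) and ENSMUSG00000027469 (-0.18). ENSMUSG00000004880, ENSMUSG00000040084 and ENSMUSG00000037544 (0.42), named for its unadjusted p, were the others below 0.05 before adjustment. ENSMUSG00000004880 was lower in both experiments (-0.27 and -0.47), and ENSMUSG00000038379 split (0.31 and -0.84). All the negative values named here turned positive with spike-in scaling.

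Between transient TNF and non-responsive blank cells the set was evenly divided. The difference was positive in 20 genes and negative in 20, with a median of -0.01 against 0.03 over all genes. By edgeR 0 of 40 genes were called, where 0.133% of the genes tested were, 0 had an unadjusted p under 0.05, and DESeq2 called 0. All 40 intervals lay within 2-fold in either direction. ENSMUSG00000048327 had again the largest difference (0.42 ± 0.19 SE, edgeR adjusted p = 0.678), at 0.28 and 0.55 in the experiments, ahead of ENSMUSG00000036777 (0.33) and ENSMUSG00000027496 (0.25). The lowest were ENSMUSG00000029177 (-0.30), ENSMUSG00000028678 (-0.25) and ENSMUSG00000032254 (-0.24). In G2M cells the median was -0.09. With spike-in scaling all 40 were positive (median 0.35, all genes 0.41), and the set was -0.06 relative to all genes.

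Oscillatory and transient cells, both given TNF, were compared directly. The difference was positive in 33 genes and negative in 7, with a median of 0.10 against -0.04 over all genes. With sums per plate it was positive in 21 and negative in 19, with a median of 0.0064. By edgeR 0 of 40 were called, where 0.199% of the genes tested were, 2 had an unadjusted p under 0.05 (ENSMUSG00000029177 and ENSMUSG00000037313, the latter named for that p), and DESeq2 called 0. By experiment it was 0.28 and 0.05, and 19 genes were higher in both, 3 lower in both and 18 split. Leaving out the 1-plate experiment (sums per plate of the other) turned the median to -0.07, and leaving out the first plate of the 2-plate experiment turned it to -0.08. Leaving out the second plate of that experiment raised it to 0.22, with 37 genes positive and 3 negative. With only cells of at least 8000 genes the median was 0.11, with 33 genes positive and 7 negative. In G2M cells it was 0.06, with 26 genes positive. With spike-in scaling 38 were positive and 2 negative (median 0.32, all genes 0.13).

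The largest difference here was that of ENSMUSG00000029177. It had 0 to 596 CPM in oscillatory (median 202) and 0 to 345 CPM in transient cells (median 102) of the 1-plate experiment. The 2-plate cells had 0 to 455 CPM (median 132) and 0 to 448 CPM (median 137). The cells overlapped, and the medians differed in the first and were nearly equal in the other. The fitted difference was 0.53 ± 0.19 (SE, edgeR adjusted p = 0.427), at 0.88 and 0.18 in the experiments. ENSMUSG00000028678 (0.46) and ENSMUSG00000026605 (0.43) followed. The lowest differences were those of ENSMUSG00000038379 (-0.30), ENSMUSG00000004880 (-0.21) and ENSMUSG00000044783 (-0.10). Without the 1-plate experiment (sums per plate of the other) ENSMUSG00000029177, ENSMUSG00000028678 and ENSMUSG00000026605 turned to -0.01, -0.08 and -0.10.

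**Figure D5:**
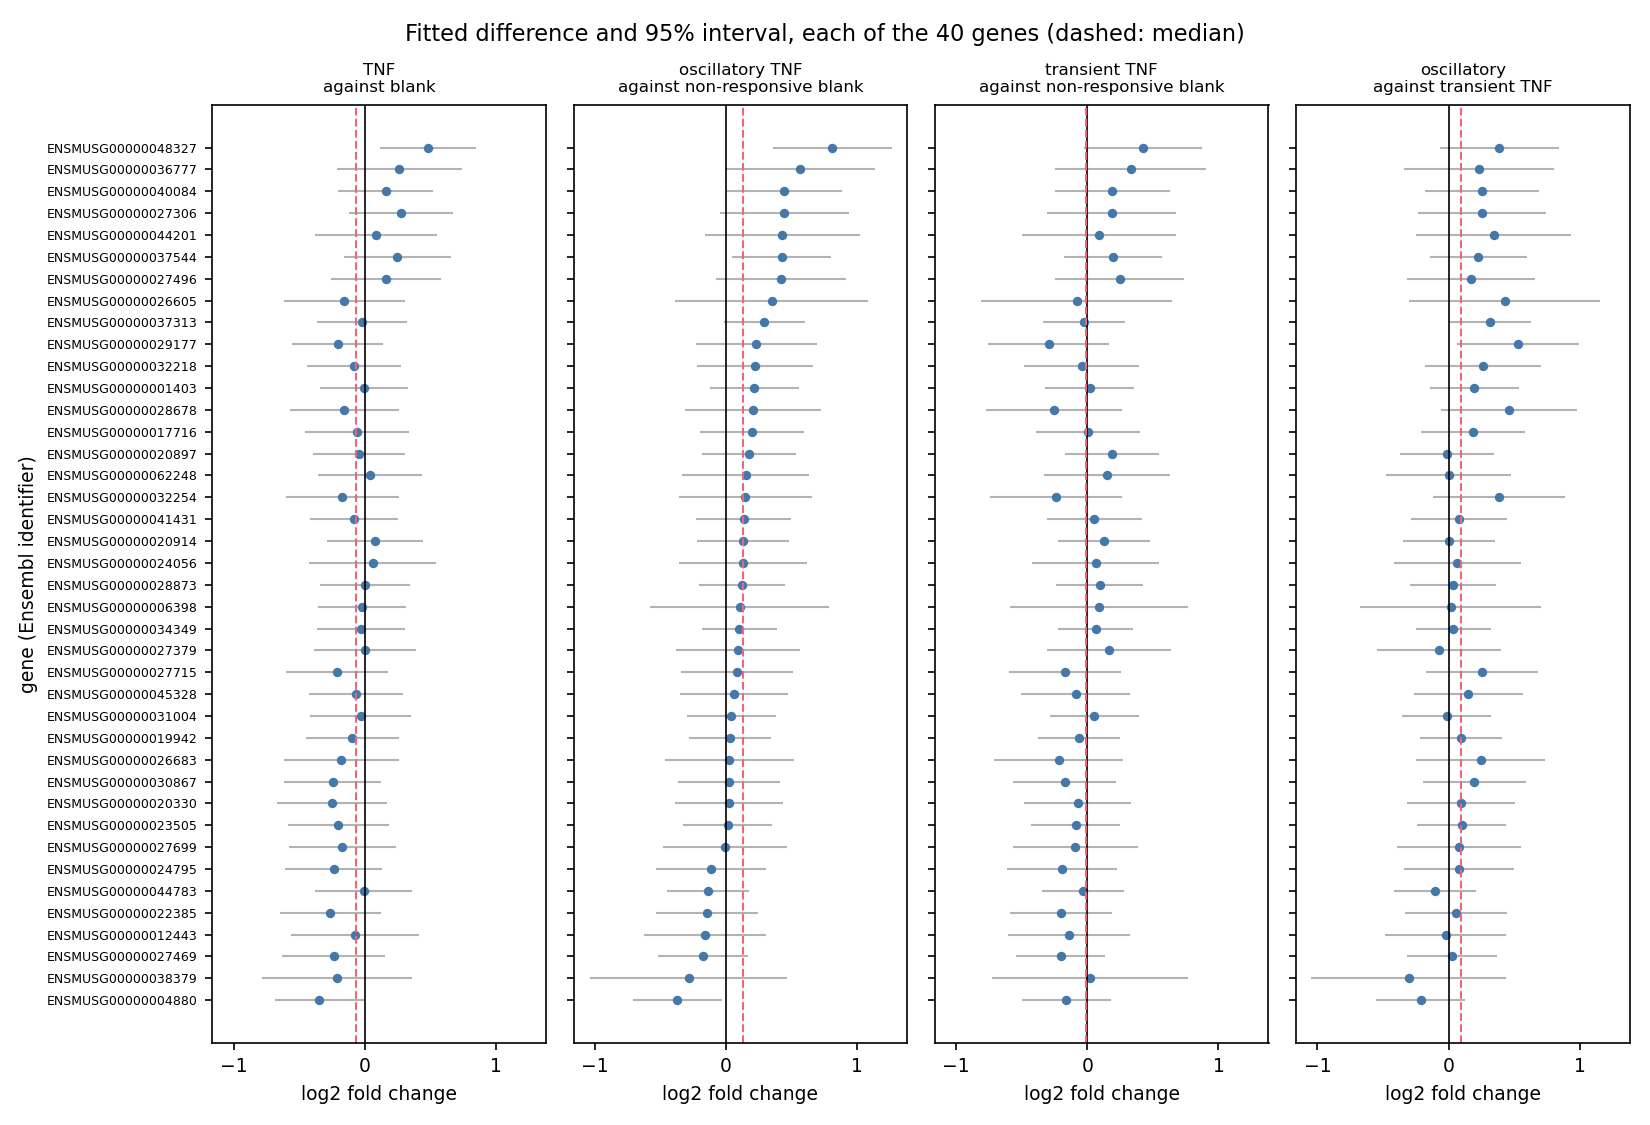
Fitted log2 fold change (points) and 95% interval (lines) of each of the 40 genes in the 4 comparisons, from edgeR's quasi-likelihood test, ordered by the difference between oscillatory TNF and non-responsive blank cells. Dashed lines are the medians of the set (-0.06, 0.13, -0.01 and 0.10). No gene was called. ENSMUSG00000048327 is the top row of every panel and has the largest difference in the first 3.

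Other classes had enough cells in the 2-plate experiment only and were not tested. The median summed CPM of the set was 3929 in non-responsive TNF cells (557 to 11496, n = 18), 2235 in unclear TNF cells (393 to 11362, n = 16), 1695 in sustained TNF cells (921 to 7603, n = 5) and 8790 in oscillatory blank cells (885 to 9363, n = 5). G2M cells were 7 of 18, 6 of 16, 2 of 5 and 3 of 5 of these. Cells under 8000 detected genes were 6 of 18 non-responsive and 5 of 16 unclear TNF cells, against 2 of 34 non-responsive blank cells. The part of these cells in the low medians was not tested.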

How the data were processed

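Polyadenylated RNA of single GMPs was sequenced (Smart-Seq2, Nextera), per the labels. Read counts per Ensembl gene were deposited by the authors as whole numbers, and featureCounts, Subread 1.5.0 and SAMtools are the tools named by the submitters' processing notes. The genome build, annotation and strand setting were not found in these sources, so reads of overlapping genes or near-identical copies may be split. The authors' deposited cell tables give stimulus, response class, phase and 3 phase scores per cell, each score a fraction of 1, made in a way that is not stated. The 357 count columns that match no sample and the 92 spike-in features stayed out of library sizes and tests (the latter served 1 alternative). None of the 55450 identifiers (0) matched the reference gene table, so gene lists and cell type markers set by symbol, and the rule that names members by symbol, were not analysed here. No 2 cells had identical columns (0).

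Reads were summed per experiment and stimulus (4 sums, each 15208545 to 200524120 reads, with 1 residual degree of freedom) or per experiment, stimulus and class with at least 5 cells (10 sums of 6371417 to 81353924 reads, 2 residual degrees of freedom). They were tested with edgeR 4.0.16 in R 4.3.3 (default filter, TMM factors, experiment as a term, quasi-likelihood test, two-sided, Benjamini-Hochberg adjustment at 0.05 over all genes). Within a fit the spread was estimated once over its sums. A standard error is the absolute log2 fold change over the square root of F. With the experiment as a term, the p-values rest on how far a difference varied between these 2 experiments. That variation may be technical, since separate animals are not named. Its estimate for each gene was moderated with information from all genes. This added 4.64 prior degrees of freedom in the stimulus fit and 4.32 in the class fit, more than the residual ones. In simulated counts with the fitted spread, changed genes were drawn from all genes at or above the lowest abundance in the set (5260 to 5669 genes). The rates are thus not matched to the abundance of the set. Recovery of 2-fold changes was 85% (TNF), 68% (oscillatory against blank), 73.4% (transient against blank) and 69.6% (oscillatory against transient). Recovery of 4-fold changes was at least 99.8%, and 10.93% to 12.94% of all calls were false. Phase values, shares (exact Clopper-Pearson intervals at 95%) and correlations of log2(CPM + 1) are descriptions. Alternatives were DESeq2 1.42.0, other factors, filters, sums, cells and plates. Named in each comparison are the 3 largest and the 3 smallest fitted differences, besides any gene called and the genes most like the set (2 of 10 printed). The members, lists and tests were chosen with earlier results of these data known.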

Additional observations from a re-analysis of the deposited data

Results flagged for a closer look

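In groups of 4 to 10 cells of a class, or of a class and phase, the highest and lowest cell were compared with the rest. A cell stood far apart in 2 of 13 such groups. The limit used is met by about 1 in 20 groups of normal values. CPM per cell need not be normal, so the 2 groups are not set against that rate. Among the 4 G1 cells of the transient TNF class in the 1-plate experiment, 1 cell held 4033 CPM of the set, against a median of 868. Among the 9 G1 cells of the non-responsive blank class in the 2-plate experiment, 1 cell held 4670 CPM, against a median of 1694. Of the 44 samples outside the cell tables, which entered no comparison, 43 had a read of at least 1 gene of the set. Their depth was 1805 to 1130586 reads (median 115918), 12 had under 10000 reads, and they held reads of 0 to 40 genes of the set (median 17).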

How the results depend on the processing

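With 2 experiments and 1 or 2 residual degrees of freedom, small differences of the set could not be resolved, and levels in G1 rest on few reads. No gene was called in any comparison under the alternatives, except that 1 was called (ENSMUSG00000048327, oscillatory TNF against non-responsive blank) with the stricter filter (log2 0.81) and with DESeq2 (log2 0.81). In that comparison 732 of all 8361 genes tested were called with the stricter filter and 1286 of 16586 with DESeq2. All values below are log2 differences, and the cause of the moves was not tested. No paired analysis was possible because the numbers of the cells only count wells of a plate, and the experiment was a term already.

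For TNF against blank the median of the set moved to -0.079 with relative log expression factors, -0.030 without a filter, -0.036 with the stricter filter, -0.051 with sums per plate, 0.0059 in G2M cells, 0.34 with spike-in factors and -0.079 with DESeq2. For transient TNF against non-responsive blank it moved to 0.026 with sums per plate, -0.091 in G2M cells and 0.35 with spike-in factors. With sums per plate it was 0.027 for oscillatory TNF against non-responsive blank and 0.0064 for oscillatory against transient TNF. With spike-in factors it was 0.68 for oscillatory TNF against non-responsive blank and 0.32 for oscillatory against transient TNF. Leaving out each plate in turn gave medians of -0.12 to -0.038 for TNF, -0.067 to 0.11 for oscillatory TNF against blank, -0.13 to 0.18 for transient TNF against blank and -0.083 to 0.22 for oscillatory against transient TNF. Where the 1-plate experiment was left out, here and below, reads were summed per plate of the other, so the unit changed as well. The median G2M over G1 ratio of the 2-plate experiment was 2.57 to 2.82 without 1 of its plates, and with at least 8000 genes per cell it was 3.43 and 2.81 in the 1-plate and 2-plate experiments. Both of these settings were added after the data were seen.

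With spike-in factors these genes changed sign: for TNF against blank ENSMUSG00000004880 (0.052), ENSMUSG00000022385 (0.14) and ENSMUSG00000020330 (0.15), for oscillatory TNF against blank ENSMUSG00000004880 (0.15), ENSMUSG00000038379 (0.21) and ENSMUSG00000027469 (0.42), for transient TNF against blank ENSMUSG00000029177 (0.077), ENSMUSG00000028678 (0.12) and ENSMUSG00000032254 (0.074), and for oscillatory against transient TNF ENSMUSG00000044783 (0.079, and 0.063 in G2M cells). Leaving out each plate in turn, sign changes were seen for ENSMUSG00000020330 (-0.38 to 0.017) and ENSMUSG00000036777 (-0.052 to 0.31) with TNF, and for ENSMUSG00000036777 (-0.11 to 0.39) between transient TNF and blank. Between oscillatory and transient TNF they were seen for ENSMUSG00000044783 (-0.34 to 0.00076), ENSMUSG00000026605 (-0.10 to 0.47), ENSMUSG00000028678 (-0.077 to 0.45) and ENSMUSG00000029177 (-0.013 to 0.61). Counts of all genes called moved by over 1.5 times with several settings, from 0 to 673 for TNF, 34 to 1286 for oscillatory TNF against blank, 1 to 308 for transient TNF against blank and 0 to 636 for oscillatory against transient TNF.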
